A study of Homo sapiens with 10 samples.

Results

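Unusually wide Smad3 peaks lie in 5 windows of the genome, named here for the genes MALAT1, CDKN1B, BHLHE40, KRT7 and KDM6B. The windows were chosen by the measured width of Smad3 peaks: each holds at least 1 H441 Smad3 peak of 3 kb or more in cells with or without depletion of the transcription factor TTF-1. They contain 112 of the 79601 peaks in the 7 called lists, and 8 of the 28 Smad3 peaks that pass the width limit. On build hg18 the windows are chr11:65000000-65050000 for MALAT1, chr12:12740000-12790000 for CDKN1B, chr3:4970000-5050000 for BHLHE40, chr12:50890000-50950000 for KRT7 and chr17:7660000-7720000 for KDM6B. Since Smad3 width chose the windows, every Smad3 width and its change between the 2 siRNAs is a description without a test. The label of the set speaks of genes spanned by the peaks. Gene models of hg18 were not used here, so how far a peak follows the transcribed unit, an exon, an intron or a UTR was not analysed, and the gene names below stand for windows.

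Chromatin immunoprecipitation with sequencing (ChIP-seq) mapped Smad3, Smad4 and TTF-1 (also called NKX2-1) in the lung adenocarcinoma cell lines H441, which expresses TTF-1, and A549, which does not. In H441 cells Smad3 and Smad4 were each mapped with TTF-1 present (siControl, a control siRNA) and with TTF-1 depleted by siRNA (siTTF-1). TTF-1 itself was mapped in H441 cells without a named siRNA, at 0 h and at 1.5 h. A549 cells gave 1 Smad3 library with no siRNA named. The treatment given for all samples was 1 ng/ml TGF-β3 for 1.5 h, so the meaning of 0 h rests on a sample title alone. Each condition had 1 library, so differences between conditions have no replicate check, and peak lists do not give sequencing depth. The Smad3 lists held 8941 peaks in siControl cells, 14145 in siTTF-1 cells and 2535 in A549 cells. The TTF-1 lists held 31083 peaks at 0 h and 21291 at 1.5 h, and Smad4 had 1605 peaks after siTTF-1 and 1 after siControl, which lies in none of the windows. The limit on the false discovery rate was 10% in the Smad4 lists, 5% in A549 and 1% in the other 4 lists, and widths called at different limits are not on the same footing.

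TGF-β receptors phosphorylate Smad3, which joins Smad4, enters the nucleus and binds short DNA elements, often together with a lineage factor such as TTF-1. A transcription factor bound at a single element gives a narrow ChIP-seq peak, whereas a peak of several kilobases marks enrichment along a stretch of chromatin. MALAT1 is an abundant long noncoding RNA kept in nuclear speckles, named for its link to metastasis of lung adenocarcinoma. CDKN1B encodes p27, an inhibitor of cyclin-dependent kinases that takes part in the growth arrest by TGF-β. BHLHE40 is a basic helix-loop-helix repressor that responds to TGF-β and hypoxia. KRT7 is a keratin of simple epithelia and a usual marker of lung adenocarcinoma, and KDM6B is a demethylase of trimethylated lysine on histone H3 that acts at Polycomb targets. In the RefSeq gene order of GRCh38.p14, TALAM1 and MASCRNA follow MALAT1, GPR19 precedes CDKN1B and APOLD1 lies after it, BHLHE40-AS1 precedes BHLHE40, KRT7-AS follows KRT7, and DNAH2 and TMEM88 lie on either side of KDM6B. ChIP-seq carries no strand, so a peak in these windows cannot be assigned to 1 of 2 neighbouring or antisense genes.

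Promoter sequences from RefSeq were matched by symbol for 4 of the 5 genes, all but KRT7. The 250 bases before the first listed start of each gene are printed because these are the stretches in which a Smad3 or TTF-1 element near the start of the genes would be read. Their positions are on GRCh38.p14, unlike all peak positions, so whether a peak covers them was not analysed. Capitals mark matches on either strand to the Smad element CAGAC, the GC-rich Smad element GGCGC, the TTF-1 family core CAAGTG or the AP-1 element TGANTCA.
MALAT1 promoter, chr11:65497488-65497737, plus strand: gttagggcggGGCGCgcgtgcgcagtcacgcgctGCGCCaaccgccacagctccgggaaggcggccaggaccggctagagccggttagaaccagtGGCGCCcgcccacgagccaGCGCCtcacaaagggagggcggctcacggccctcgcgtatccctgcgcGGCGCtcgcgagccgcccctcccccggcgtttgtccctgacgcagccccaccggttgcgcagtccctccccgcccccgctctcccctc
CDKN1B promoter, chr12:12717118-12717367, plus strand: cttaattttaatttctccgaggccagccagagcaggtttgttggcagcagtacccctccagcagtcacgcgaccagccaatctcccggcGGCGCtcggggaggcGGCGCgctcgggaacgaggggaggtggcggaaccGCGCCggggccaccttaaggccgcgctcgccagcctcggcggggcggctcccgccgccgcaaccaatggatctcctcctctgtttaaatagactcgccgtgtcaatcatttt
BHLHE40 promoter, chr3:4979187-4979436, plus strand: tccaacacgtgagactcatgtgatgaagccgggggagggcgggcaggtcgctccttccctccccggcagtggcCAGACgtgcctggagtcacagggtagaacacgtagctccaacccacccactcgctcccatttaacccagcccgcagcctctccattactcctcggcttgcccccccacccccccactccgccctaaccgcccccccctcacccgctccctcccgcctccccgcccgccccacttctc
KDM6B promoter, chr17:7833967-7834216, plus strand: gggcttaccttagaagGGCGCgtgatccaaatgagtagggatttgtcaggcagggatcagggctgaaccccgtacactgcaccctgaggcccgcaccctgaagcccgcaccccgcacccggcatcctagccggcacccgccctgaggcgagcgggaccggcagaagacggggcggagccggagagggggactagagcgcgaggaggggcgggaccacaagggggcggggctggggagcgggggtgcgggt
GGCGC was found 6 times in the MALAT1 stretch, 3 times in that of CDKN1B and 1 time in that of KDM6B, and 44.5% of the 35116 RefSeq promoter stretches of this length hold it. In MALAT1 2 of the 6 matches share bases, since GGCGCC reads as the element on both strands. CAGAC was found 1 time, in BHLHE40 from -177 to -173 before the start, and 38.0% of all stretches hold it. CAAGTG and TGANTCA were found in none of the 4, against 9.5% and 6.57% of all stretches, and no match of one element overlapped a match of another. RefSeq lists a second start for MALAT1 and for KDM6B, and the stretches before these held none of the 4 elements. A match of this length is a description of letters and not a binding site.

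The wide peaks were rare in both H441 lists. In siControl cells 13 of 8941 Smad3 peaks (0.145%) were 3 kb or wider, and 3 of these lay in the windows. In siTTF-1 cells 15 of 14145 (0.106%) were, 5 of them in the windows. In A549 cells no Smad3 peak reached 3 kb, and the widest measured 2899 bp. The median Smad3 width was 599 bp in siControl and 649 bp in A549 cells, and in siTTF-1 cells it was 50 bp below that of siControl. The narrowest wide peak in the windows was that of KDM6B at 3149 bp, the narrowest in either list 3049 bp, and just under the limit were 1 siControl and 3 siTTF-1 peaks of 2999 bp, all outside the windows. The plot of peaks ordered by width shows MALAT1, BHLHE40 and KRT7 as the 3 widest peaks of the siTTF-1 list, while the widest siControl peak lies elsewhere, on chromosome 14.

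**Figure D1:**
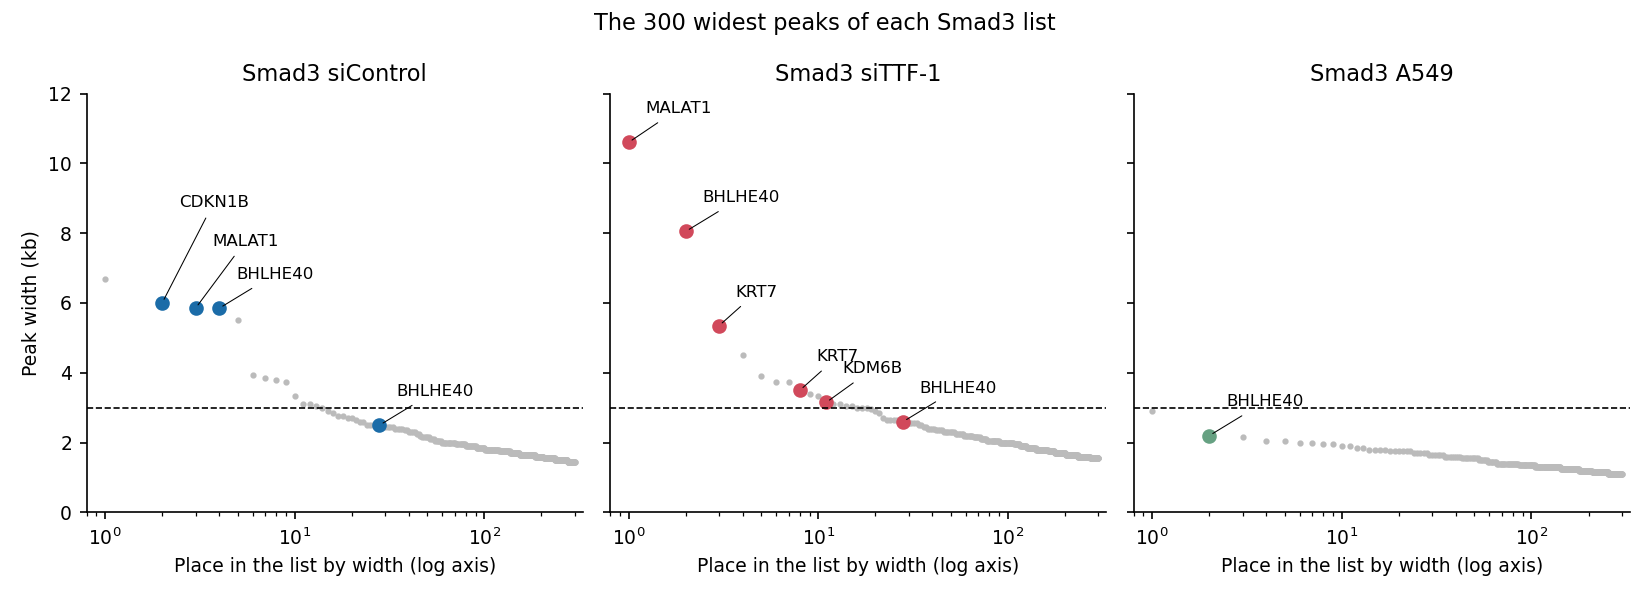
Width in kb of the 300 widest peaks of each Smad3 list against their place by width (log axis); coloured points are peaks of 2 kb or more in the 5 gene windows, grey points all others, and the dashed line is the 3 kb limit. MALAT1 (10599 bp) and BHLHE40 (8049 bp) head the siTTF-1 list, and the BHLHE40 peak of 2199 bp stands second in A549.

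In what follows, a span is a stretch covered without a break by the Smad3 peaks of the 2 H441 lists together, holding at least 1 peak of 3 kb or more. The windows hold 6 spans, 2 of them in the KRT7 window, of 36694 bp in total. Of the 5 spans found in both lists, 4 were longer in covered bases after siTTF-1 (MALAT1, BHLHE40 and both of KRT7) and 1 was shorter (CDKN1B). Of these, only MALAT1 and BHLHE40 held a peak of 3 kb or more in both lists. Both KRT7 spans passed this limit through the siTTF-1 list alone and CDKN1B through the siControl list alone. The direction of the KRT7 and CDKN1B spans therefore follows in part from the list that admitted them. The KDM6B span was called after siTTF-1 only. The map of the windows shows these peaks by list.

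**Figure D2:**
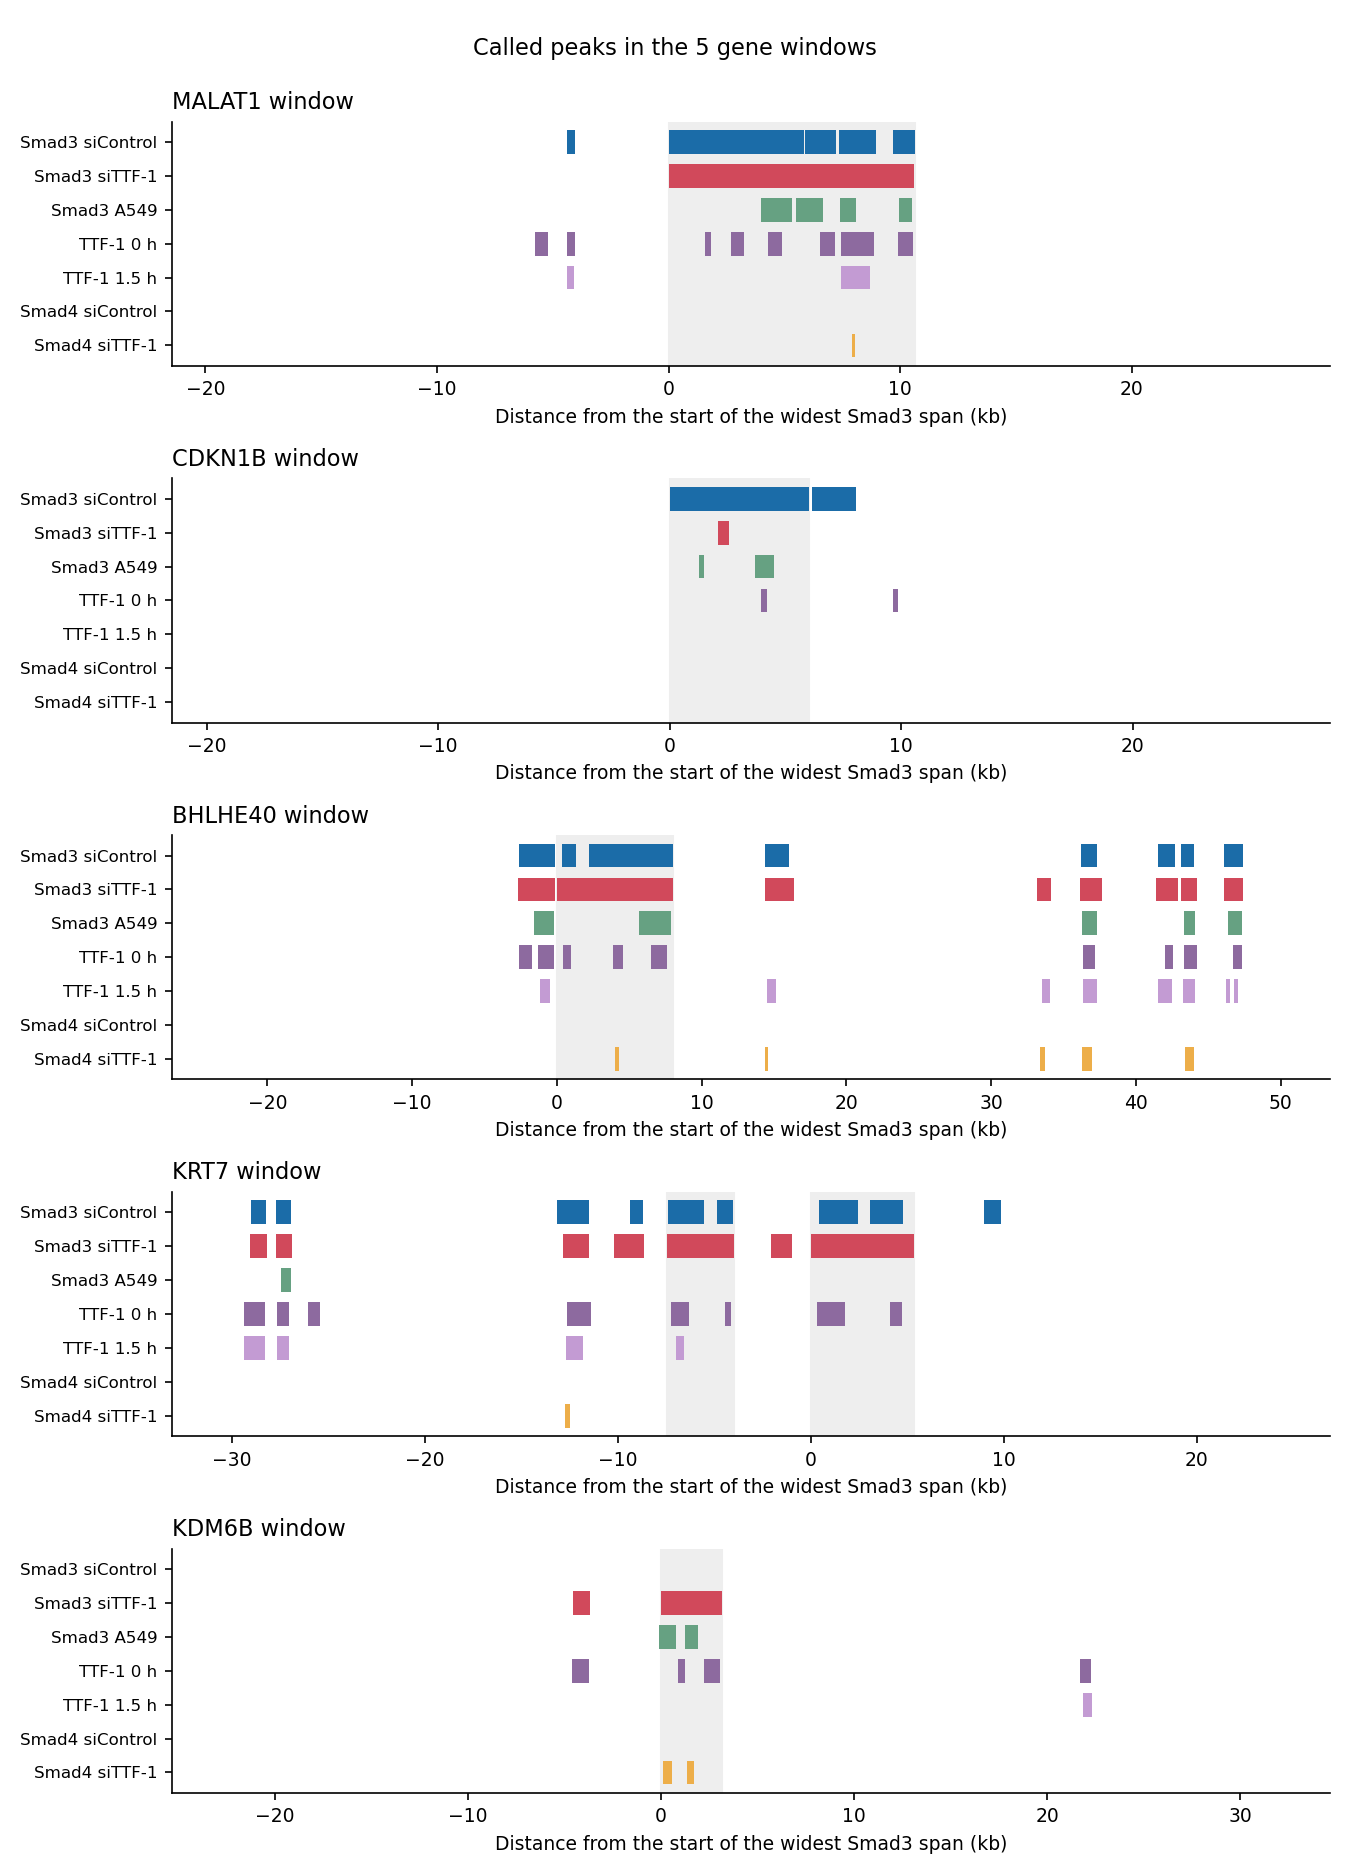
Called peaks of the 7 lists in each gene window against the distance in kb from the start of the widest Smad3 span; each bar is 1 peak to scale and grey shading marks the 6 spans. The siTTF-1 Smad3 peaks run without a break where siControl peaks are divided at MALAT1, BHLHE40 and KRT7, the CDKN1B span keeps 1 short peak, and the KDM6B window has no siControl Smad3 peak.

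At MALAT1 the Smad3 signal had nearly the same outer borders in both H441 conditions. In siControl cells 4 peaks covered 9746 bp: 65021451 to 65027299 (5849 bp), 65027351 to 65028699 (1349 bp), 65028801 to 65030399 (1599 bp) and 65031151 to 65032099 (949 bp) on chromosome 11. In siTTF-1 cells 1 peak of 10599 bp ran from 65021451 to 65032049. The left border was identical and the right border differed by 50 bp, which is 1 step of the position grid. The widest peak was thus 1.81 times as wide after siTTF-1, but the covered length was only 1.09 times as long, because the change consisted of 3 gaps of 51, 101 and 751 bp that were no longer called as gaps. Beyond the span, a siControl peak of 349 bp at 65017051 had no siTTF-1 counterpart, and the next Smad3 peak to the right lay 51951 bp away in siControl and 47651 bp in siTTF-1 cells. The MALAT1 span was thus the only Smad3 signal in its window after siTTF-1.

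At CDKN1B the wide Smad3 peak was nearly absent after siTTF-1. In siControl cells 1 peak of 5999 bp ran from 12761501 to 12767499 on chromosome 12, the second widest of its list, and a peak of 1899 bp (12767651 to 12769549) followed after a gap of 151 bp. In siTTF-1 cells a single peak of 449 bp was called, at 12763601 to 12764049. It lay inside the former span, 2100 bp from its left and 3450 bp from its right border. Covered bases in the window were 7898 bp in siControl and 449 bp in siTTF-1 cells, a ratio of 0.0568, and within the span the ratio was 0.0748. Among all 7142 Smad3 regions found in both H441 lists, no other had a ratio as low. That set leaves out the 1718 regions called in siControl cells only, where all cover was lost. So low a ratio also needs a wide siControl peak, and the window was chosen for such a peak. The siControl peak stood at number 2387 of 8941 in the deposited order and its small successor at 8066 of 14145.

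At BHLHE40 the wide peak was extended at its left end. In siControl cells 2 peaks lay in the span, 4996951 to 4997949 (999 bp) and 4998801 to 5004649 (5849 bp) on chromosome 3, with 851 bp between them. In siTTF-1 cells 1 peak of 8049 bp ran from 4996601 to 5004649. The right border was the same to the base, and the left border lay 350 bp further out. Covered bases in the span were 6848 bp and 8049 bp, a ratio of 1.18. A further long peak, under the 3 kb limit, sat just to the left in both conditions, of 2499 bp in siControl (4994001 to 4996499) and 2599 bp in siTTF-1 cells (4993901 to 4996499), and only 101 bp separated it from the wide peak after siTTF-1, against 451 bp in siControl.

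Further Smad3 peaks surrounded the BHLHE40 span. Outside the span its 80 kb window held 6 siControl and 7 siTTF-1 Smad3 peaks, and all 6 siControl peaks were called again. The peak at 5032801 to 5033949 was number 27 of the siControl list, and its counterpart (5032751 to 5034249) was number 2 of the siTTF-1 list. The additional siTTF-1 peak lay at 5029751 to 5030749 and met a Smad4 peak (5030001 to 5030299) and a TTF-1 1.5 h peak. To the right of the span the siTTF-1 peaks were between 999 and 1999 bp wide, short of the wide class. Over the whole window Smad3 covered 15542 bp in siControl and 19092 bp in siTTF-1 cells, a ratio of 1.23.

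At KRT7, 2 pairs of siControl peaks corresponded to 2 single siTTF-1 peaks. The first span held siControl peaks at 50923551 to 50925549 (1999 bp) and 50926151 to 50927899 (1749 bp) on chromosome 12, and 1 siTTF-1 peak at 50923101 to 50928449 (5349 bp). This peak filled the gap of 601 bp and reached 450 bp further to the left and 550 bp further to the right. The second span held siControl peaks at 50915701 to 50917599 (1899 bp) and 50918251 to 50919099 (849 bp), and 1 siTTF-1 peak at 50915651 to 50919149 (3499 bp), with 50 bp more at each end and a gap of 651 bp filled. Covered bases were 1.43 times as many in the first span and 1.27 times in the second. Neither span held a siControl peak of 3 kb, so both entered the wide class through the siTTF-1 list alone. Between the spans a siTTF-1 peak of 1099 bp appeared at 50921051, while a siControl peak of 849 bp at 50932101 had no counterpart. Over the window Smad3 covered 11191 bp in siControl and 14543 bp in siTTF-1 cells, a ratio of 1.3.

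At KDM6B no Smad3 peak was called in siControl cells anywhere in the window of 60 kb. After siTTF-1 a peak of 3149 bp was called at 7685351 to 7688499 on chromosome 17, number 1418 of the list, and a second of 849 bp at 7680801 to 7681649, number 9221. No fold change can be given against an empty list, and the sampling depth that a missing peak would need is unknown. The bars of widest peak and covered length show the 5 windows side by side.

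**Figure D3:**
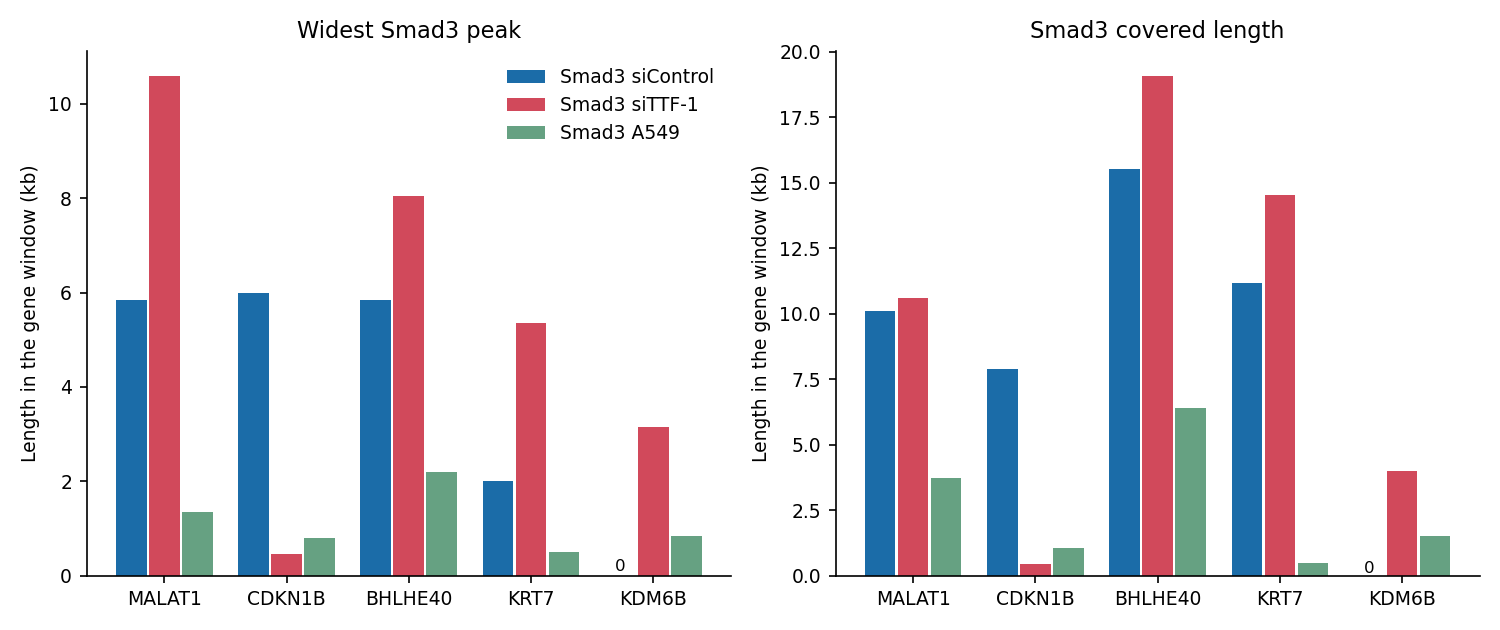
Width of the widest Smad3 peak (left) and total length covered by Smad3 peaks (right) in each gene window, in kb, with 1 library per bar and therefore no error bar. The widest peak differs between the H441 conditions far more than the covered length at MALAT1 (5849 and 10599 bp against 10095 and 10599 bp), while CDKN1B is lower after siTTF-1 on both measures and KDM6B is 0 in siControl.

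The covered length of the 4 longer spans stayed within the 1.5-fold limits. None of the 5 spans found in both lists was longer by 1.5-fold or more after siTTF-1, and 11.9% of the 7142 regions in both lists were. Shorter by 1.5-fold or more was 1 span, CDKN1B, as were 5.95% of the regions. The median ratio of siTTF-1 to siControl covered bases was 1.18 over the 5 spans and 1.06 over all regions in both lists, of which 3753 were longer and 2271 shorter. KDM6B was 1 of 6 spans without a siControl peak, against 43.9% of all 15804 regions. Several siControl peaks with 1 siTTF-1 peak were seen in 4 of the 5 spans, in 5 of the 15 other regions with a wide peak and in 1.04% of the regions in both lists. The count of joined peaks follows in large part from how regions were joined: of the 78 regions in both lists with 2 or more siControl peaks, 74 had 1 siTTF-1 peak. All these shares are printed as background, since Smad3 width in the same lists chose the windows. The counts and the median over the spans pool spans that passed the width limit in both lists with those that passed in 1 only.

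**Figure D4:**
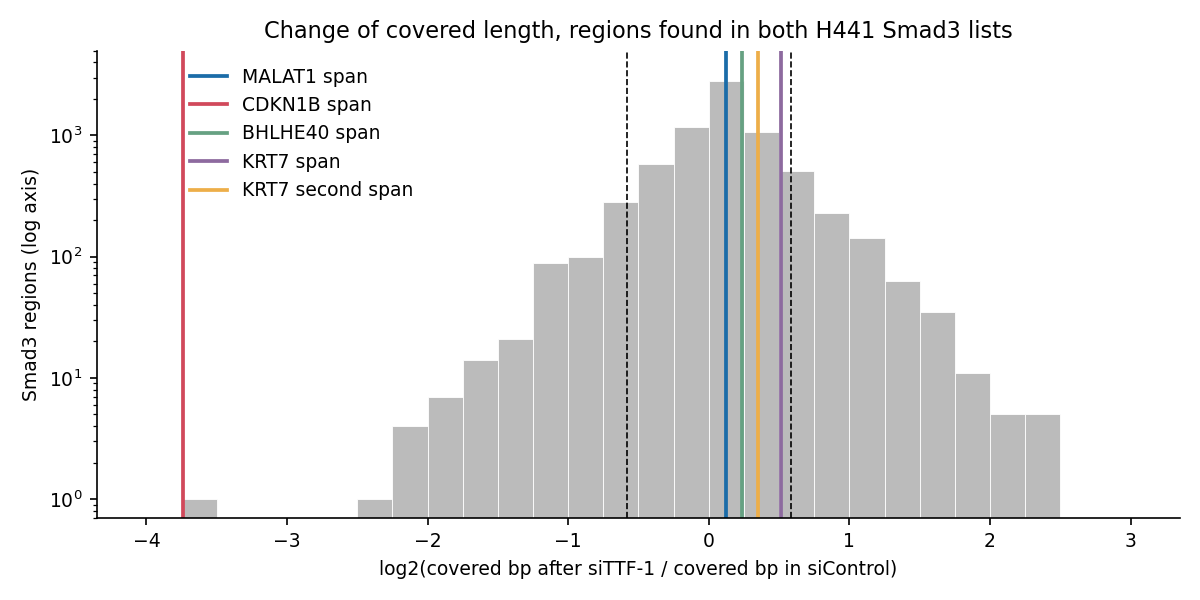
Number of Smad3 regions (log axis) by the log2 ratio of covered bases after siTTF-1 to those in siControl, over the 7142 regions in both lists; coloured lines are the 5 spans found in both, dashed lines the 1.5-fold limits. CDKN1B, with a ratio of 0.0748, lies at the far left end, and the other 4 spans, from 1.09 to 1.43, lie within the limits.

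The other regions with a Smad3 peak of 3 kb or more, 15 in number, differed in both directions. After siTTF-1 6 of them had more covered bases, 8 fewer and 1 the same, with a median ratio of 0.97 and a range from 0.541 to 2.65. All 15 were found in both lists. No test of the difference from the 6 spans was made, since both sets were chosen on these widths.

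TTF-1, whose lists played no part in the choice of the windows, was present in all 6 spans at 0 h, with 16 peaks over 30.9% of their length. Of all 15804 H441 Smad3 regions 65.7% met a TTF-1 0 h peak, of the 7142 in both lists 86.8%, and of the other wide regions 12 of 15. Presence at 0 h was thus common among Smad3 regions. The spans are longer than most regions, and the part of length in their count was not tested. MALAT1 held 6 of these peaks, between 299 and 1399 bp wide, over 38.9% of its span. BHLHE40 held 3 (29.8%), each KRT7 span 2 (39.2% and 35.7%), KDM6B 2 (38.0%) and CDKN1B 1 peak of 249 bp (4.15%). Most of them were peaks far down the deposited order, with a median number of 27244.5 of 31083. Their median width was 649 bp, and none was wider than 1449 bp. The Smad3 spans were thus dotted with separate TTF-1 peaks and not matched by a TTF-1 peak of their own extent.

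At 1.5 h TTF-1 peaks were called in 2 of the 6 spans and over 4.63% of their length, against 57.8% of all regions, 81.0% of those in both lists and 11 of the 15 other wide regions. MALAT1 kept 1 of its 6 peaks, at 65028901 to 65030149 (1249 bp), and the second KRT7 span kept 1 of 2, at 50916101 to 50916549 (449 bp). No TTF-1 peak was called at 1.5 h in the spans of CDKN1B, BHLHE40 and KDM6B or in the first KRT7 span. Of the 16 peaks at 0 h, 14 had no counterpart at 1.5 h, where the background over the whole 0 h list is 34.7%. Among the 10391 peaks at 0 h in any H441 Smad3 region, 1615 had none and 84.5% had one. The missing peaks include KRT7 peak number 11204 (50923451 to 50924899) and BHLHE40 peak number 13710 (5000451 to 5001199), which stand in quintiles 2 and 3 of the deposited order. In these quintiles 96.5% and 74.1% of all peaks had a counterpart. Of those that met an H441 Smad3 region, 98.2% and 85.7% had one. In the last quintile lay 11 of the 16, none with a counterpart. Of all peaks in that quintile 16.7% had one, and of those that met an H441 Smad3 region 33.9%. If each of the 16 had the share of its quintile over the whole list, 5.86 would have had a counterpart, and 2 did. All 16 lie in H441 Smad3 regions, whose peaks had higher shares in quintiles 2 to 5 (58.4% against 39.4% in quintile 4). A count from those shares would thus exceed 5.86. Within the same windows but outside the spans, 10 of 15 TTF-1 0 h peaks had one, against 9.5 from their quintiles. In the 15 other wide regions 16 of 23 had one, against 12.9 from their quintiles. The 12.9 uses whole-list shares too, and these 23 peaks also lie in Smad3 regions, so a count from the shares there would be higher. Peaks of 1 span share a locus and each time is 1 library, so no test was made, and the part of library depth in the difference between the TTF-1 lists was not tested.

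**Figure D5:**
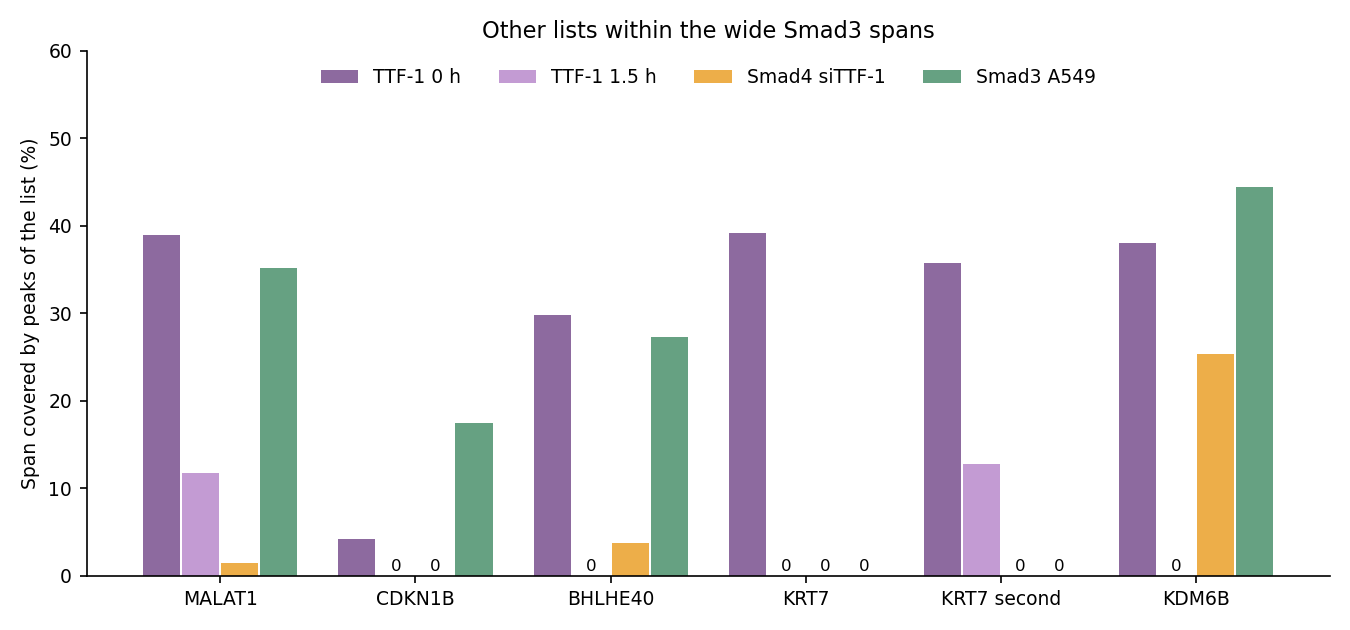
Percent of each wide Smad3 span covered by peaks of TTF-1 at 0 h and 1.5 h, Smad4 after siTTF-1 and Smad3 in A549; 1 library per bar, 0 where no peak was called. TTF-1 at 0 h covers between 29.8% and 39.2% of every span but CDKN1B (4.15%), and at 1.5 h only MALAT1 (11.7%) and the second KRT7 span (12.8%) hold a TTF-1 peak.

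The bases that Smad3 peaks covered only after siTTF-1 lay mostly outside TTF-1 peaks. In the 4 longer spans these added bases numbered 4456, and TTF-1 0 h peaks covered 100 of them (2.24%), all in the first KRT7 span. Of the 23090 bases already covered in siControl cells in the same spans, TTF-1 0 h peaks covered 42.4%. Over all 3753 regions that were longer after siTTF-1 the same shares were 30.2% and 73.2%, so TTF-1 cover was lower in added bases there as well. By definition added bases lie in the gaps or beyond the borders of siControl peaks, and these spans were taken because they were longer. The part of this in the shares was not tested.

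The short CDKN1B peak that was called after siTTF-1 met none of the other factors. The TTF-1 0 h peak of the span (12765451 to 12765699, number 30833 of 31083) lay to its right, over bases that H441 Smad3 peaks covered in siControl and not in siTTF-1 cells, and within an A549 Smad3 peak. The A549 Smad3 peaks of the span, at 12762751 to 12762999 and 12765201 to 12765999, lay on either side of it. CDKN1B was the span with the least TTF-1 and, with both KRT7 spans, had no Smad4 peak.

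Smad4 after siTTF-1 was called in 3 of the 6 spans, with 4 peaks, and in 5 of the 15 other wide regions, 12.6% of the regions in both lists and 8.15% of all. The median region in both lists is 749 bp long, and the part of length in these counts was not tested. KDM6B had 2, at 7685451 to 7685899 (449 bp, number 97 of 1605) and 7686701 to 7687049 (349 bp, number 857), over 25.3% of the span. BHLHE40 had 1 peak of 299 bp at 5000601 to 5000899, inside a TTF-1 0 h peak, and MALAT1 1 peak of 149 bp at 65029351 to 65029499, inside the only stretch of that span with TTF-1 at both times. They covered 3.71% and 1.4% of these spans. All 4 Smad4 peaks were thus 449 bp wide or less, within Smad3 spans of 3149 bp or more. At KDM6B neither Smad4 peak met a TTF-1 peak.

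In A549 cells, which lack TTF-1, Smad3 was called in 4 of the 6 spans and over 22.9% of their total length. It was called in 6 of the 15 other wide regions, 14.6% of the regions in both lists and 9.34% of all. As for Smad4, the part of length in these counts was not tested. MALAT1 held 4 A549 peaks, the widest of 1349 bp, over 35.2% of the span and all from 65025451 onwards. BHLHE40 held 1 of 2199 bp at 5002301 to 5004499, the second widest of the 2535 A549 peaks, near the right end of the H441 span. KDM6B held 2, of 849 bp (7685251 to 7686099, number 150) and 649 bp, over 44.4% of the span, and these contained the 2 Smad4 peaks of H441. CDKN1B held 2, of 249 and 799 bp (17.5%). Neither KRT7 span had an A549 peak, and the only one in that window was a peak of 499 bp at 50895651. Among the 5 windows, KDM6B was therefore the one with Smad3 in A549 and in siTTF-1 cells and none in siControl cells. Regions of a single H441 list with an A549 peak were also found elsewhere: 1476 of all regions met one, of which 1046 were in both lists.

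Over the whole wide class, 7 of 13 wide siControl peaks met a TTF-1 1.5 h peak (53.8%, exact Clopper-Pearson 95% interval 25.1 to 80.8), as did 82.2% of all siControl peaks. At 0 h the shares were 84.6% (54.6 to 98.1) and 87.7%. Among wide siTTF-1 peaks 10 of 15 met a TTF-1 1.5 h peak (66.7%, 38.4 to 88.2), beside 54.1% of all peaks of that list. Smad4 siTTF-1 peaks were present at 46.7% (21.3 to 73.4) of the wide siTTF-1 peaks and at 9.06% of all, and A549 peaks at 9 of 15 (interval 32.3% to 83.7%) and at 10.3%. A peak of 3 kb or more offers more bases to overlap than a typical one, and the part of width in these shares was not tested. The intervals treat peaks as independent, although some wide peaks lie side by side at 1 locus. They cover counting error at most, and peaks are not replicates of a condition.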

How the data were processed

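The series has 10 samples: 7 ChIP-seq libraries with peak lists and 3 input libraries, which were not analysed here. Peaks were called on single libraries on build hg18, per the submitters' processing notes and the labels. Aligner and peak caller names were not given in the sources used here. The deposited score is 1000 for every peak and was not used. The deposited peak number is the order of the list, and its meaning is not given. Starts were raised by 1 to count from 1, width is end minus deposited start, and 1 track line was skipped. Groups were taken from the sample titles, and 3 deposited subsets of these lists were not used.

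Peaks sharing at least 1 bp were counted as overlapping. Smad3 peaks of both H441 lists were joined into 15804 regions, and covered bases were compared per region at a fold limit of 1.5. With 1 library per condition no test was made. The members, lists and measures were chosen with earlier results of these data known. Named peaks are those of 3 kb or more in the windows, with the peaks of other lists that meet or neighbour them. Alternatives were other merging, windows, list lengths, limits and overlap rules. Promoters and gene order are from RefSeq (GRCh38.p14). Python 3.11.15, NumPy 2.4.6, SciPy 1.17.1 and matplotlib 3.10.9 were used, and interval code was checked against bedtools and tested on simulated peaks.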

Additional observations from a re-analysis of the deposited data

How the results depend on the processing

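For the covered Smad3 length of the 5 windows, all 25 alternatives kept the direction, and those of the 4 windows with a ratio kept the side of the 1.5-fold limit. Not all of them could move a result. Shortening the siTTF-1 list removed no peak in the MALAT1, BHLHE40 and KRT7 windows, so the ratios there stayed at 1.05, 1.23 and 1.3. The CDKN1B ratio was 0.0 when the siTTF-1 list was shortened by width, which removes its peak of 449 bp, and the KDM6B difference ranged from 3149 to 4696 bp. At the lower fold limit tried, 1749 regions were longer and 915 shorter, and at a limit of 2, 262 and 136. The first 50% of the lists left 1 span with TTF-1 1.5 h and 1 with Smad4, and all 6 had TTF-1 when the earlier list (0 h) was used. With a limit of 4 kb, TTF-1 peaks met 100.0% (0 h) and 20% (1.5 h) of 5 siControl peaks and 25.0% (1.5 h) of 4 siTTF-1 peaks. Of the 24 alternatives for such shares, 21 stayed within the interval. No paired analysis was possible because each condition had 1 library and no replicate numbers. Depth is unknown, so a missing peak is not an absence of binding.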

Other observations

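Beyond the gene windows, the longest wide Smad3 regions lay on chromosome 14, where regions of 10699 bp (36050751 to 36061449) and 5499 bp (36045201 to 36050699) are separated by 51 bp. Both were shorter in covered bases after siTTF-1, with ratios of 0.812 and 0.918, and were divided into more peaks: 4 in place of 2 and 3 in place of 1. At MALAT1, BHLHE40 and KRT7 several siControl peaks corresponded to 1, as they did in 5 of the 15 wide regions outside the windows. The third longest, on chromosome 19 (12760001 to 12764499), was 2.65 times as long after siTTF-1 and had no TTF-1 peak at either time. Neither region on chromosome 14 had an A549 or a Smad4 peak, and the region on chromosome 19 had 1 A549 peak. These regions are given without gene names, since they were not matched to genes here.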
